A study of Mus musculus with 53 samples.

Results

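The genes described here encode the subunits of the SWI/SNF chromatin remodeling complex, and they were followed through a mouse model of synovial sarcoma. The set holds 30 mouse genes, and a gene counted as measured if a probe set on the array carried its symbol, or a current alias of it, and no other symbol in the platform annotation. By this rule 27 of the 30 were measured, out of 17097 genes with a named probe set. No probe set was named here for *Ss18*, *Smarca4* or *Arid1b*, which were not analysed. Where a gene had several probe sets the brightest stands for it, which is that with the highest mean over the 53 arrays.

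Synovial sarcoma cells carry a fusion of *SS18* with an *SSX* gene. In the model, FLAG-tagged human *SS18-SSX1* was delivered by a pMYs retrovirus to embryonic mesenchymal cells (eMCs) from the limbs of BALB/c embryos, and transduced cells formed tumors under the skin of nude mice, a host that lacks mature T cells but keeps B cells and myeloid cells. The arrays fell into 9 groups. eMCs were sampled 48 h after transduction with an empty retrovirus that carries GFP (4 arrays) or with *SS18-SSX1* (4 arrays). Tumors grew from eMCs given *SS18-SSX1* (SS, 12 tumors) or a vector with *SS18-SSX1* and mouse *miR-214* in the place of GFP (SS214, 13 tumors). The cell lines SS40 and SS64 (so labeled, where the text of the study calls the second line SS60) came from mouse synovial sarcomas, and each was measured after introduction of *miR-214* (4 arrays) and with a control labeled NC (4 arrays), which the labels do not spell out. The remaining group was a mix of normal tissues (4 arrays), labeled as mouse although the study's methods call it human. Each line is a single line, and nothing says that the 4 arrays of a line, of the eMCs or of the mix came from separate cultures or animals, so p-values there measure only the spread between arrays, which may be technical. The retrovirus integrates at several places in a tumor.

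SWI/SNF complexes use ATP to slide or eject nucleosomes and so open chromatin. Each complex is built around an ATPase, *Smarca4* (BRG1) or *Smarca2* (BRM), and scaffold subunits shared between assemblies. Canonical BAF (cBAF) contains an ARID1 and a DPF protein, PBAF contains *Arid2*, *Pbrm1*, *Brd7* and *Phf10*, and the non-canonical complex (ncBAF) contains *Brd9* and *Bicra* or *Bicral* and lacks *Smarcb1* (SNF5). *Ss18* belongs to cBAF and ncBAF but not to PBAF, and the fusion protein takes its place there. Many subunits have paralogs that are used in different tissues, and neurons exchange several of them as they differentiate.

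The mature arms of *miR-214* are shown because this microRNA is the agent added to tumors and lines. They lie on the plus strand of mouse chromosome 1 (GRCm38.p6, RefSeq), the 5p arm at chr1:162223397-162223418 and the 3p arm at chr1:162223438-162223459, and capitals mark the seed, bases 2 to 8.
mmu-miR-214-5p: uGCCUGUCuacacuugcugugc
mmu-miR-214-3p: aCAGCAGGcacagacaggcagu
The promoters of *Bcl11b*, *Smarca2* and *Phf10* are shown because these genes had, in this order, the largest change between tumors and eMCs, the largest change between the lines, and the smallest adjusted p in eMCs given the fusion. Each window covers 250 bases before and 50 bases after the start of the gene, on the strand of the gene (RefSeq, GRCm38.p6), and capitals mark GC boxes (GGGCGG on either strand).
Bcl11b, chr12:108003365-108003664, minus strand: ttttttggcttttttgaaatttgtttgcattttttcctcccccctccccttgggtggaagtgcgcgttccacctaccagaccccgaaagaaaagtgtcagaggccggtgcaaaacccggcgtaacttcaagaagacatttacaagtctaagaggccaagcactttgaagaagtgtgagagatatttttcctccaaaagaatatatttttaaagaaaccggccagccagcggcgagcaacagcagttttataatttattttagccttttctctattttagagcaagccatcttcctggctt
Smarca2, chr19:26604910-26605209, plus strand: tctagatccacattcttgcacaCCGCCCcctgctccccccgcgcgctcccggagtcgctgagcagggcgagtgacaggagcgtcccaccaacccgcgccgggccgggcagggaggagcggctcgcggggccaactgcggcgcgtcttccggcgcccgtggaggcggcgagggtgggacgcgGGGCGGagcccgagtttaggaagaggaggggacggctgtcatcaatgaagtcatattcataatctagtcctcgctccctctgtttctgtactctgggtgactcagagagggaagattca
Phf10, chr17:14961211-14961510, minus strand: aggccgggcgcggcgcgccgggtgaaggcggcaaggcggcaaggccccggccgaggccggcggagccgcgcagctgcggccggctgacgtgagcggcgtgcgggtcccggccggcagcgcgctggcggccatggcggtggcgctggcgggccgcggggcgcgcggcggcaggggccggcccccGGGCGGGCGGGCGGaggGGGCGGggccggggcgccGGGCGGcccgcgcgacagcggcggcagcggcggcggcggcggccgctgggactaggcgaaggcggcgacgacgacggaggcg
The *Phf10* window held 5 GC boxes and 62 CG dinucleotides, the *Smarca2* window 2 and 29, and the *Bcl11b* window 0 and 9. RefSeq windows were matched for 22 of the 27 members (24 windows), and 22 of these (91.7%) held a GC box, against 35.7% of all 32851 windows. CCAAT was present on either strand in 5 windows of members (20.8%) and 37.4% of all, and TATAAA in 2 (8.33%, *Bcl11b* and *Smarcd2*) and 13.6% of all. The median count of CG dinucleotides was 32 in windows of members and 7 in all windows. These matches describe letters and not binding.

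Levels below are log2 of the deposited intensity of a probe set, and they can be compared between groups but not between genes. Intensities under 11.7 were set to that floor (log2 3.55). *Actl6b*, *Dpf1* and *Dpf3* had means under the mean array median of 4.60, so changes of these genes near the floor are understated. A gene was called at an adjusted p under 0.05 (limma, Benjamini-Hochberg over all probe sets tested). In bulk RNA, fewer cells of a type and less RNA per cell cannot be told apart.

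Some arrays and groups stood apart before any subunit was considered. A rise of the *Gapdh* 3′ control probe set over its 5′ partner goes with degraded RNA, and this log2 ratio was 0.85 ± 0.37 in SS tumors (SD, n = 12) and 0.06 ± 0.14 in SS214 tumors (SD, n = 13), with 12 of 13 SS214 tumors below every SS tumor. The means of the other groups were -0.18 to 0.06. The ratio was 0.33 to 1.43 in SS tumors, 0.04 to 0.07 in the mix and -0.02 to 0.06 in empty-vector eMCs. SS tumors therefore did not overlap with either reference. Of 9 mesenchyme markers all but *Col1a2* rose above the 40th percentile of intensities on at least 1 array of eMCs and of SS tumors, and the list, as log2 of its summed intensity, reached 13.9 in empty-vector eMCs and 13.1 to 14.0 in SS. The 8 skeletal muscle markers summed to 13.5 to 15.6 in SS, 12.9 to 15.9 in SS214, 15.4 in the mix and 8.95 to 9.07 in empty-vector eMCs. The array of SS40 with *miR-214* replicate 4 had a mean correlation of 0.9822 with its group, against 0.9899 to 0.9906 for the other 3, and results that rest on it are given with and without it.

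**Figure D1:**
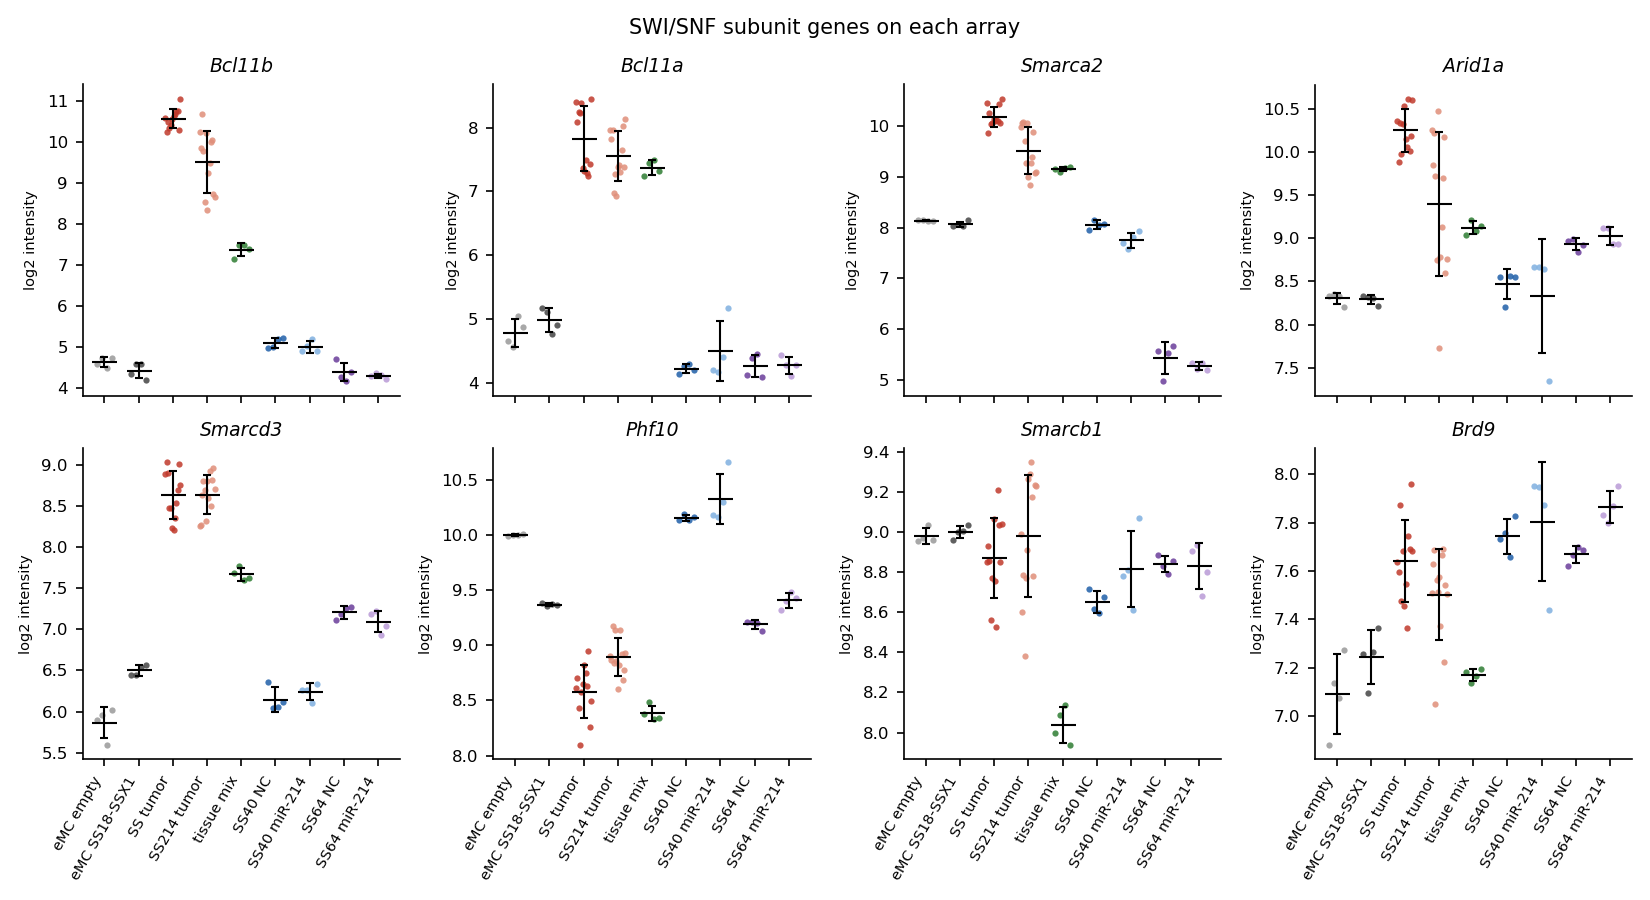
Log2 intensity (y axis) of subunit genes on each array or tumor (dots), by group (x axis), with group means and SDs. *Bcl11b* lies at 10.23 to 11.06 in SS tumors and at 4.49 to 4.72 in empty-vector eMCs.

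The first comparison asked how the subunit genes respond when *SS18-SSX1* is expressed in eMCs for 48 h. *Phf10*, the PHD-finger subunit of PBAF, fell. *Bcl7a*, a subunit that binds the ATPase module, *Smarcd3*, the core subunit typical of heart and muscle, and *Actl6a*, the actin-related subunit of dividing cells, rose. 8 of the 27 members were called, 5 higher and 3 lower (29.6%), where 48.9% of all genes tested were called (29.4% higher and 19.5% lower). The groups did not overlap for 8 members, where they did not for 46.5% of all genes. No member passed 2-fold, where 3.65% of all genes did.

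*Phf10* read 9.99, 10.00, 9.99 and 10.01 with the empty vector and 9.38, 9.35, 9.38 and 9.37 with the fusion. The arrays of each group lay close together and the groups did not overlap, with a change of -0.63 ± 0.02 (log2, SE; 1.55-fold lower, limma adjusted p = 1.17e-11). *Bcl7a* read 5.86, 5.97, 6.06 and 5.98 with the empty vector and 6.66, 6.46, 6.65 and 6.66 with the fusion. Every array with the fusion was higher, by 0.64 ± 0.07 on average (1.56-fold, limma adjusted p = 1.94e-06), whereas the next brightest probe set of the gene changed by -0.01 ± 0.11 (limma adjusted p = 0.949). *Smarcd3* read 5.90, 5.95, 5.59 and 6.02 with the empty vector and 6.45, 6.44, 6.55 and 6.57 with the fusion. The groups were separate again, at 0.63 ± 0.09 (1.55-fold, limma adjusted p = 2.32e-05). *Actl6a* read 8.66, 8.54, 8.55 and 8.66 with the empty vector and 8.96, 8.99, 8.99 and 8.98 with the fusion. It was higher on every array with the fusion, by 0.38 ± 0.04 (1.3-fold, limma adjusted p = 5.59e-07), and its other probe set rose by 0.55 ± 0.07.

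Smaller calls were rises of *Ss18l1* (CREST), the neuronal paralog of *Ss18*, by 0.33 ± 0.10 and of the neuronal DPF gene *Dpf1* by 0.23 ± 0.07, the latter with 1 array of the empty vector at the floor. *Dpf2*, the widely expressed DPF gene, fell by 0.15 ± 0.03 and the core gene *Smarcd2* fell by 0.13 ± 0.03. *Smarcb1*, the subunit lost in rhabdoid tumors, read 8.95, 8.97, 9.04 and 8.96 with the empty vector and 8.96, 9.00, 9.01 and 9.03 with the fusion. These values overlapped, with a difference of 0.02 ± 0.03 (limma adjusted p = 0.677). *Smarca2* read 8.16, 8.15, 8.14 and 8.13 and then 8.03, 8.07, 8.03 and 8.15, which also overlapped (-0.07 ± 0.04, limma adjusted p = 0.149). *Arid1a*, the DNA-binding subunit of cBAF, read 8.34, 8.35, 8.33 and 8.21 and then 8.34, 8.32, 8.30 and 8.21 (-0.01 ± 0.04), and its second probe set was called lower (-0.34 ± 0.08, limma adjusted p = 0.00393). *Brd9*, the bromodomain subunit of ncBAF, read 6.88, 7.14, 7.08 and 7.28 and then 7.26, 7.09, 7.26 and 7.36, with overlap (0.15 ± 0.08, limma adjusted p = 0.133).

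By assembly, 4 of 12 shared subunits, 2 of 6 cBAF subunits, 1 of 4 PBAF subunits and 0 of 3 ncBAF subunits were called. The shared class, here and below, includes *Smarcb1*, which ncBAF lacks. Of the ncBAF subunits *Bicral* alone had an unadjusted limma p under 0.05 (0.0255, adjusted p = 0.0593), with a change of -0.19 ± 0.08. With 1 fit over all 53 arrays, in which the tumors add to the spread, 3 members were called. The summed level of the 8 skeletal muscle markers was 10.8 to 10.9 with the fusion and 8.95 to 9.07 without, and that of the 8 neuron markers 9.48 to 9.56 and 7.51 to 7.64. The neuron sum rose mainly through *Gap43* (mean 5.50 without and 9.21 with the fusion), and the means of *Syt1*, *Map2* and *Syn1* were lower with the fusion. The 6 endothelial markers summed to 9.71 to 9.75 with the fusion and 7.17 to 7.32 without, all 6 with a higher mean, the 7 macrophage markers to 11.7 to 11.8 and 11.1 to 11.2, and the 5 cartilage markers to 13.5 to 13.6 and 14.2 to 14.3. The part of these cell types in the changes of the members was not tested.

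**Figure D2:**
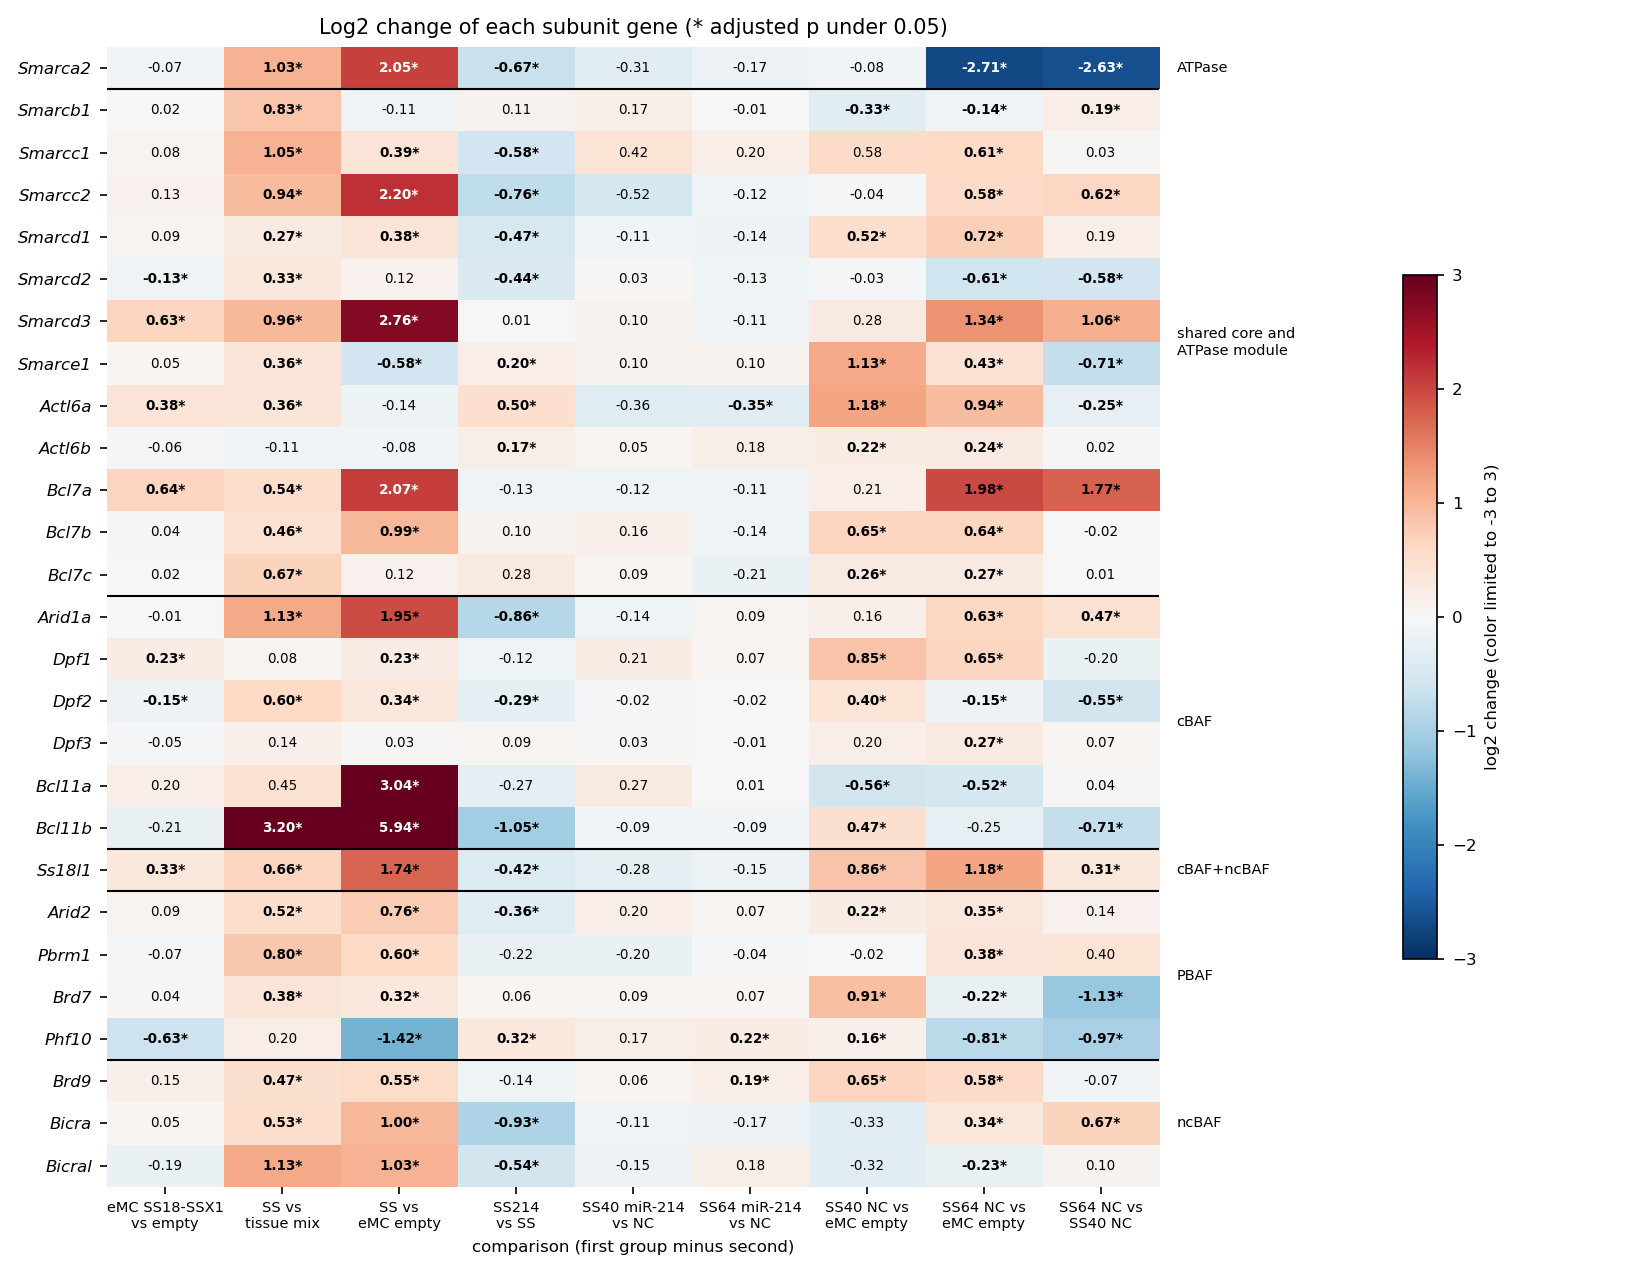
Log2 change of the 27 measured subunit genes in each comparison, first group minus second, with the genes ordered by assembly and marks where the limma adjusted p was under 0.05. Most members are higher in SS tumors than in the mix (22 called) and in eMCs (19 called), and after *miR-214* 0 are called in SS40 and 3 in SS64.

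SS tumors were compared with the tissue mix and with eMCs carrying the empty vector to see how the subunit genes stand in the tumors that the fusion gives rise to. Most members were brighter in tumors than in either reference. *Bcl11b*, a zinc-finger transcription factor of T cells and neurons that joins BAF complexes, had the largest rise against both. Against the mix, 22 of the 27 members were called, all higher (81.5%), where 63.3% of all genes were called (36.1% higher and 27.2% lower). Against eMCs, 21 of the 27 were called, 19 higher and 2 lower (77.8%), where 68.3% of all genes were called (32.6% higher and 35.7% lower). Groups did not overlap for 16 members against the mix and 17 against eMCs, where they did not for 48.5% and 49.3% of all genes. The median change over members was 0.53 and 0.55. Both comparisons rest on the same 12 tumors.

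*Smarca2*, the measured ATPase, was 9.88 to 10.55 (median 10.12) in SS tumors. It read 9.17, 9.09, 9.19 and 9.19 in the mix, and the eMC values are given above. Every tumor lay above both references, by 1.03 ± 0.10 over the mix (2.05-fold, limma adjusted p = 8.78e-08) and 2.05 ± 0.10 over eMCs (4.14-fold, limma adjusted p = 7.88e-12). The second probe set rose as well, by 1.58 ± 0.19 and 3.06 ± 0.19.

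Among the shared subunits, *Smarcb1* was 8.53 to 9.21 (median 8.85) in SS tumors and 8.00, 8.09, 8.14 and 7.94 in the mix. Every tumor was above the mix (0.83 ± 0.11, 1.78-fold, limma adjusted p = 2.58e-06), while tumors and eMCs overlapped (-0.11 ± 0.10, limma adjusted p = 0.359). *Smarcc2*, a scaffold paralog, was 7.80 to 8.86 (median 8.45) in tumors and 6.21, 6.29, 6.21 and 6.08 in eMCs. All tumors were higher than eMCs, by 2.20 ± 0.16 (4.59-fold, limma adjusted p = 1.41e-09), and higher than the mix, by 0.94 ± 0.16. *Smarcc1*, the other scaffold paralog, was 8.57 to 9.24 (median 8.88) in tumors and 7.85, 7.73, 7.81 and 7.82 in the mix. It was above the mix in every tumor (1.05 ± 0.11, 2.07-fold, limma adjusted p = 1.56e-07) and overlapped with eMCs (0.39 ± 0.11).

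*Smarcd3* was 8.21 to 9.03 (median 8.62) in SS tumors. All tumors were above the eMCs, by 2.76 ± 0.15 (6.78-fold, limma adjusted p = 3.3e-11), and above the mix, by 0.96 ± 0.14. The skeletal muscle markers were high in the same tumors, as given above, and their part in the level of *Smarcd3* was not tested. *Bcl7a* and *Bcl7b*, of the ATPase module, rose over eMCs by 2.07 ± 0.12 and 0.99 ± 0.10, and *Smarcd1* by 0.38 ± 0.12. *Smarcd2*, *Actl6a*, *Actl6b* and *Bcl7c* were not called against eMCs in their brightest probe sets. For *Smarcd2* other, dimmer probe sets were called there in opposite directions (-1.06 ± 0.09 and 0.38 ± 0.14). The other probe set of *Actl6a* was higher in every tumor, at 6.65 to 7.71 against 5.93 to 6.18 in eMCs, so its 2 probe sets disagree. Of the 12 shared subunits all but *Actl6b*, the neuronal actin-related subunit, rose over the mix. With the *Gapdh* ratio as a covariate *Smarcd1*, *Smarcd2*, *Smarce1* and *Bcl7c* were not called over the mix, nor *Smarcd1* and *Smarcc1* over eMCs. *Smarce1*, the HMG-box subunit, was called lower than in eMCs in its brightest probe set (-0.58 ± 0.09) and higher in the next (0.90 ± 0.14), so no direction is given for the gene.

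Among the cBAF subunits, *Bcl11b* was 10.23 to 11.06 (median 10.57) in SS tumors. It read 7.14, 7.47, 7.47 and 7.39 in the mix and 4.57, 4.72, 4.49 and 4.72 in eMCs. The lowest tumor was far above every reference array, and the mean rise was 3.20 ± 0.12 over the mix (9.17-fold, limma adjusted p = 8.01e-14) and 5.94 ± 0.12 over eMCs (61.4-fold, limma adjusted p = 2.16e-17). Its other 3 probe sets rose by 3.21 to 3.74 over the mix and 3.61 to 4.77 over eMCs. *Bcl11a*, the paralog known from B cells and the brain, was 7.24 to 8.45 (median 7.79) in tumors, 7.24, 7.44, 7.50 and 7.32 in the mix and 4.65, 4.57, 5.06 and 4.88 in eMCs. All tumors exceeded eMCs (3.04 ± 0.25, 8.21-fold, limma adjusted p = 6.87e-09), and tumors and mix overlapped (0.45 ± 0.24, limma adjusted p = 0.122). *Bcl11a* varied most of all members among SS tumors (SD 0.51), and *Bcl11b* had an SD of 0.23.

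Lymphocyte and neuron markers were read beside these genes. The 7 measured lymphocyte markers summed to 7.69 to 11.5 in SS, 9.95 to 10.1 in the mix and 7.78 to 7.87 in eMCs. The T-cell gene *Cd3e* averaged 6.09 in SS, 6.24 in the mix and 6.19 in eMCs. The T-cell gene *Cd3g* averaged 4.22 in SS, with a highest tumor of 6.75, 3.79 in the mix and 3.56 in eMCs. The leukocyte gene *Ptprc* averaged 7.98 in SS, 9.69 in the mix and 5.99 in eMCs, and the B-cell gene *Ms4a1* ranged from 3.55 to 9.55 among SS tumors. The 8 neuron markers summed to 9.77 to 11.2 in SS, 12.7 in the mix and 7.51 to 7.64 in eMCs. Within this list *Stmn2* went the other way and was brighter in SS (mean 9.59) than in the mix (8.76). The part of lymphocytes and neurons in the levels of *Bcl11b* and *Bcl11a* was not tested.

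*Arid1a* was 9.88 to 10.62 (median 10.26) in SS tumors and 9.04, 9.22, 9.09 and 9.14 in the mix. Every tumor was above the mix (1.13 ± 0.12, 2.2-fold, limma adjusted p = 3.31e-07) and above eMCs (1.95 ± 0.12, 3.87-fold, limma adjusted p = 2.24e-10), and the second probe set rose by 1.06 ± 0.14 and 0.67 ± 0.14. *Dpf2* rose by 0.60 ± 0.11 over the mix and 0.34 ± 0.11 over eMCs, the latter not called with the *Gapdh* ratio as a covariate (0.11, limma adjusted p = 0.571) or without the 6 SS tumors of highest ratio (0.24, limma adjusted p = 0.0845). The dim *Dpf1* and *Dpf3* were not called over the mix (0.08 ± 0.08 and 0.14 ± 0.11). *Ss18l1* rose by 0.66 ± 0.15 over the mix and 1.74 ± 0.16 over eMCs (3.33-fold, limma adjusted p = 3.95e-08).

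Of the PBAF subunits, *Phf10* was 8.09 to 8.94 (median 8.62) in SS tumors and 8.37, 8.48, 8.33 and 8.34 in the mix. Every tumor was below the eMCs, with a change of -1.42 ± 0.12 (2.67-fold lower, limma adjusted p = 9.41e-09), and tumors and mix overlapped (0.20 ± 0.12, limma adjusted p = 0.175). The 5 cartilage markers summed to 9.44 to 10.5 in SS and 14.2 to 14.3 in eMCs, and the 7 measured proliferation markers to 9.78 to 10.9 and 12.5. Both lists were lower in every tumor, and their part in the changes from eMCs was not tested. *Arid2*, *Pbrm1* and *Brd7*, which help target PBAF to chromatin, rose by 0.76 ± 0.12, 0.60 ± 0.11 and 0.32 ± 0.09 over eMCs and by 0.52 ± 0.12, 0.80 ± 0.11 and 0.38 ± 0.09 over the mix. With the *Gapdh* ratio as a covariate *Brd7* was not called over eMCs (0.17, limma adjusted p = 0.3) or the mix (0.23, limma adjusted p = 0.146). *Arid2* was then not called over the mix (0.42, limma adjusted p = 0.0845). For *Arid2* a dimmer probe set was called lower than in eMCs (-0.27). Of the ncBAF subunits, *Brd9* was 7.36 to 7.96 (median 7.66) in tumors and 7.18, 7.14, 7.16 and 7.20 in the mix. Every tumor was above the mix (0.47 ± 0.10, limma adjusted p = 0.000385) and above eMCs (0.55 ± 0.10, limma adjusted p = 0.000168). *Bicral* was 6.61 to 7.36 (median 7.06) in tumors and 5.78, 6.09, 5.75 and 5.90 in the mix, without overlap (1.13 ± 0.14, 2.2-fold, limma adjusted p = 2.57e-06), and *Bicra*, its paralog, rose by 0.53 ± 0.13, which was 0.27 and not called with the *Gapdh* covariate (limma adjusted p = 0.258).

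By assembly, 7 of 12 shared, 5 of 6 cBAF, 4 of 4 PBAF and 3 of 3 ncBAF subunits were called against eMCs, and 11 of 12, 3 of 6, 3 of 4 and 3 of 3 against the mix. Over 2-fold, 10 members were higher and 1 lower than in eMCs, where 14.5% and 8.7% of all genes were, and 5 were higher than in the mix, where 11.3% were. With the *Gapdh* ratio as a covariate 14 members were called against the mix and 16 against eMCs, and the share of all genes was not computed for that fit. The ratio did not overlap between SS tumors and either reference, so group and ratio cannot be told apart in these comparisons. The calls lost against the mix were those of *Smarcd1*, *Smarcd2*, *Smarce1*, *Bcl7c*, *Ss18l1*, *Arid2*, *Brd7* and *Bicra*. Against eMCs they were those of *Smarcc1*, *Smarcd1*, *Dpf1*, *Dpf2* and *Brd7*. *Bcl11b* was as large in that fit, at 3.33 and 6.08, and *Smarcd2* against the mix went from 0.33 to -0.01.

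Related subunits were then set against each other within each array. Of 15 pairs 12 could be formed, without *Smarca4* and *Smarca2*, *Arid1a* and *Arid1b*, or *Ss18* and *Ss18l1*. Over 108 two-sided permutation tests, adjusted together, 13 passed. In groups of 4 against 4 the smallest p of the exact test is 0.0286, which is 0.0643 after adjustment, so no such pair could pass.

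*Bcl11a* minus *Bcl11b* spanned -0.15 to 0.57 in empty-vector eMCs, -0.07 to 0.10 in the mix and -3.52 to -2.03 in SS tumors. Every tumor had shifted toward *Bcl11b*, by -2.90 from eMCs and -2.74 from the mix (exact permutation p = 0.0011, adjusted p = 0.0108 in both, the smallest p these groups allow). *Smarcd1* minus *Smarcd3* was -1.57 to -0.87 in eMCs, -3.07 to -2.83 in the mix and -4.19 to -3.22 in tumors. The shift toward *Smarcd3* was -2.39 from eMCs and -0.69 from the mix, with the same p-values. *Smarcc1* minus *Smarcc2* was 2.17 to 2.37 in eMCs and 0.00 to 1.24 in tumors. It shifted toward *Smarcc2* by -1.80 (exact permutation p = 0.0011, adjusted p = 0.0108). Other shifts from eMCs passed without overlap, those of *Phf10* minus *Dpf2* (-1.76), *Bcl7a* minus *Bcl7b* (1.08) and *Bcl7b* minus *Bcl7c* (0.86).

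In eMCs given the fusion the larger shifts were those of *Bcl7a* minus *Bcl7b* (0.60), *Smarcd1* minus *Smarcd3* (-0.55) and *Phf10* minus *Dpf2* (-0.47). In each of them the groups did not overlap. *Phf10* minus *Dpf2* spanned 1.33 to 1.40 with the empty vector, 0.86 to 0.92 with the fusion and -0.94 to 0.25 in SS tumors. Against the mix, *Dpf2* minus *Dpf1* (0.52) and *Dpf2* minus *Dpf3* (0.46) passed too, and *Bicra* minus *Bicral* did not (-0.60). *Brd9* minus *Brd7*, which sets an ncBAF subunit beside a PBAF subunit, did not pass in the 3 comparisons with tumors, and the other 6 could not pass at 4 against 4. It shifted without overlap in SS64 NC, by 0.80 from eMCs and 1.06 from SS40 NC, at the smallest p the exact test allows.

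**Figure D3:**
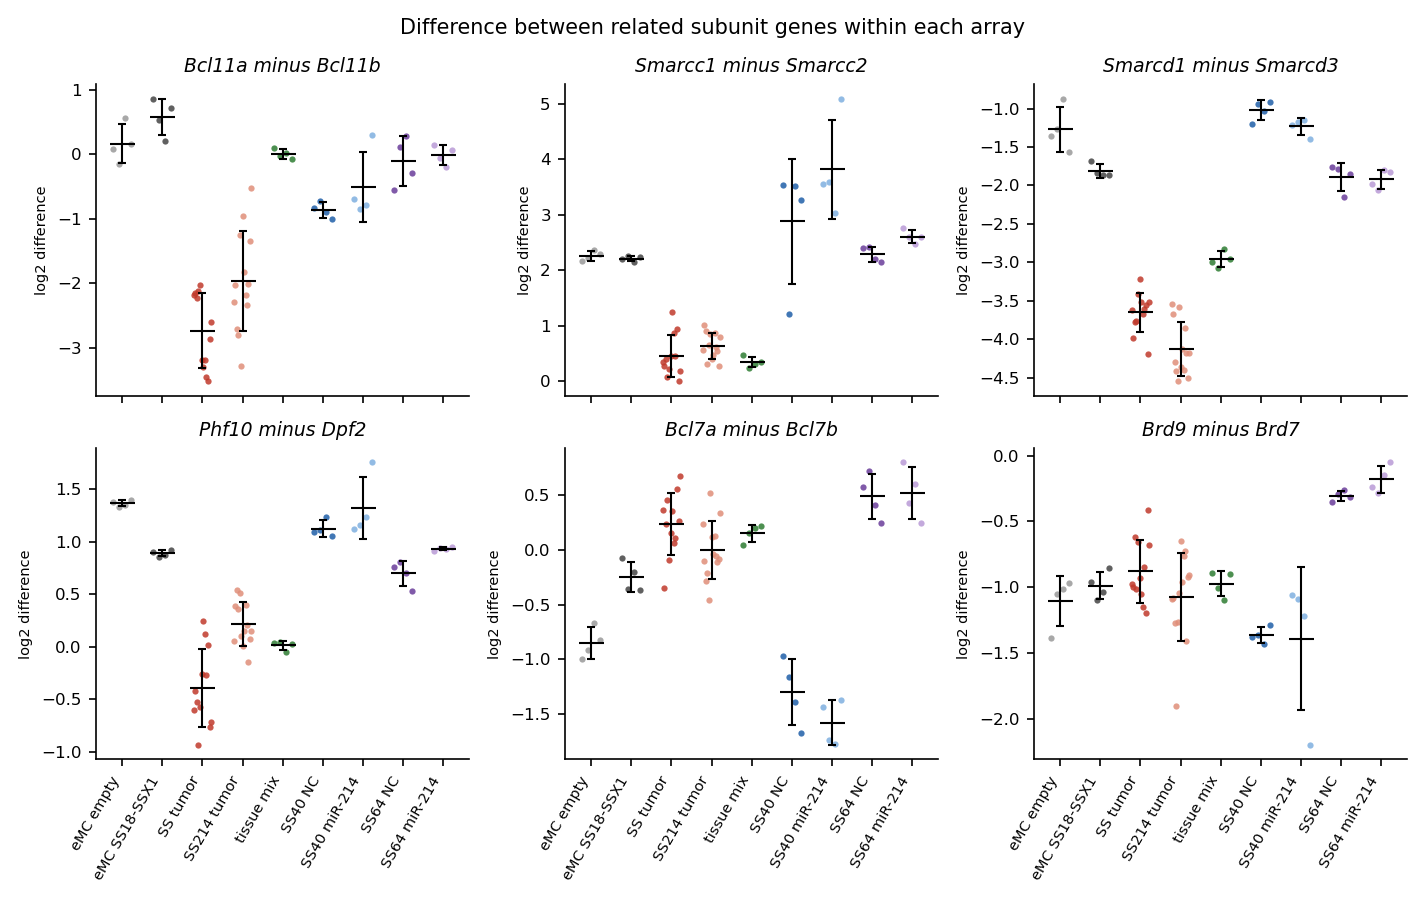
Log2 difference between related subunit genes within each array or tumor (y axis), by group (x axis), with group means and SDs. The level of a difference depends on the probe sets, so shifts between groups are read. *Bcl11a* minus *Bcl11b* spans -3.52 to -2.03 in SS tumors against -0.15 to 0.57 in empty-vector eMCs.

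SS214 tumors were compared with SS tumors to ask what the vector with *miR-214* adds in tumors. Per the study, SS18, SS19 and SS23 carry integrations at *Dnm3*, the locus of *miR-214*, and had raised *miR-214*, moderately so in SS23. Tumors with these numbers are in the SS group, so that group is not free of raised *miR-214*. *Bcl11b*, *Bicra*, *Arid1a*, *Smarcc2* and *Smarca2* were lower in SS214 and *Phf10* was higher. 16 of the 27 members were called, 4 higher and 12 lower (59.3%), where 39.9% of all genes were called (22.6% higher and 17.3% lower), with a median of -0.22. No member separated the groups without overlap, where 1.27% of all genes did. The *Gapdh* ratio nearly separated the same groups, so that group and ratio cannot be told apart for most members. With the ratio as a covariate 1 member was called, *Bcl11b*, and the share of all genes called was not computed for that fit. In that fit the changes of *Smarcc1* (-0.54 ± 0.23), *Smarcc2* (-0.65 ± 0.21), *Smarca2* (-0.70 ± 0.25), *Bicra* (-0.85 ± 0.33) and *Actl6a* (0.45 ± 0.19) stayed near their values without the covariate, that of *Arid1a* was larger (-1.27 ± 0.42), and those of *Dpf2* (-0.08 ± 0.12) and *Smarcd2* (-0.15 ± 0.17) were smaller. The SE was larger with the covariate for each of these 8 members.

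*Bcl11b* was 8.34 to 10.67 (median 9.78) in SS214. The lower SS214 tumors fell below all SS tumors and the highest lay among them, with an SD of 0.76. The mean change was -1.05 ± 0.21 (2.06-fold lower, limma adjusted p = 0.00046), it was -1.40 ± 0.39 with the covariate (limma adjusted p = 0.0322), and the other 3 probe sets changed by -1.28 to -1.06. *Bicra* was 4.60 to 6.32 (median 5.59) in SS214 and 6.08 to 6.98 (median 6.47) in SS. Most SS214 tumors were lower, with some overlap, and the mean change was -0.93 ± 0.18 (1.9-fold lower, limma adjusted p = 0.000236). *Arid1a* was 7.72 to 10.48 (median 9.71) in SS214, the widest spread of any member there (SD 0.83). Some SS214 tumors reached the SS range and others lay more than 1 log2 unit below it, with a mean change of -0.86 ± 0.24 (1.81-fold lower, limma adjusted p = 0.00539).

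*Smarcc2* was 7.22 to 8.02 (median 7.63) in SS214, a change of -0.76 ± 0.12 with overlap (1.69-fold lower, limma adjusted p = 2.37e-05). *Smarca2* was 8.85 to 10.09 (median 9.41) and fell by 0.67 ± 0.14 (1.59-fold lower, limma adjusted p = 0.000476), and its second probe set changed by -1.28 ± 0.26. *Smarcb1* was 8.38 to 9.35 (median 8.99) and *Brd9* 7.05 to 7.69 (median 7.54), both overlapping with SS and not called (0.11 ± 0.10 and -0.14 ± 0.08). With the lung markers as a covariate *Smarcb1* was called higher (0.29, limma adjusted p = 0.0435). The other members called lower were *Smarcc1*, *Smarcd1*, *Smarcd2*, *Dpf2*, *Ss18l1*, *Arid2* and *Bicral*, with changes of -0.58 to -0.29. Those called higher were *Actl6a* (0.50 ± 0.10), *Phf10* (0.32 ± 0.08), *Smarce1* (0.20 ± 0.07) and *Actl6b* (0.17 ± 0.05). For *Actl6a* the other probe set was called lower (-0.39 ± 0.13), and called probe sets of *Smarcd2* and *Bcl11a* also moved in opposite directions.

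Without the 6 SS tumors of highest *Gapdh* ratio 13 members were called, and with the lung markers as a covariate 13. The share of all genes called was not computed for these fits. The 3 measured lung markers summed to 5.10 to 6.94 in SS and 5.37 to 12.2 in SS214. Among the pairs, *Phf10* minus *Dpf2* shifted by 0.61 (permutation p = 0.00012, adjusted p = 0.0108), *Smarcd1* minus *Smarcd3* by -0.48 (permutation p = 0.00128, adjusted p = 0.0115) and *Dpf2* minus *Dpf3* by -0.38 (permutation p = 0.00066, adjusted p = 0.0108). The ranges of SS and SS214 overlapped in each of these pairs. No pair was tested with the *Gapdh* ratio as a covariate, so group and ratio cannot be told apart in these shifts. In the limma fit of single members with that covariate *Phf10* changed by 0.34 (adjusted p = 0.179) and *Smarcd1* by -0.29 (adjusted p = 0.185). In the same fit *Dpf2* changed by -0.08 (adjusted p = 0.717). The 7 measured proliferation markers summed to 9.78 to 10.9 in SS and 10.8 to 11.7 in SS214, and the 7 macrophage markers to 9.27 to 12.6 (median 10.96) and 10.5 to 12.7 (median 12.18). Their part in the changes of *Actl6a*, *Phf10* and the other members was not tested.

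**Figure D4:**
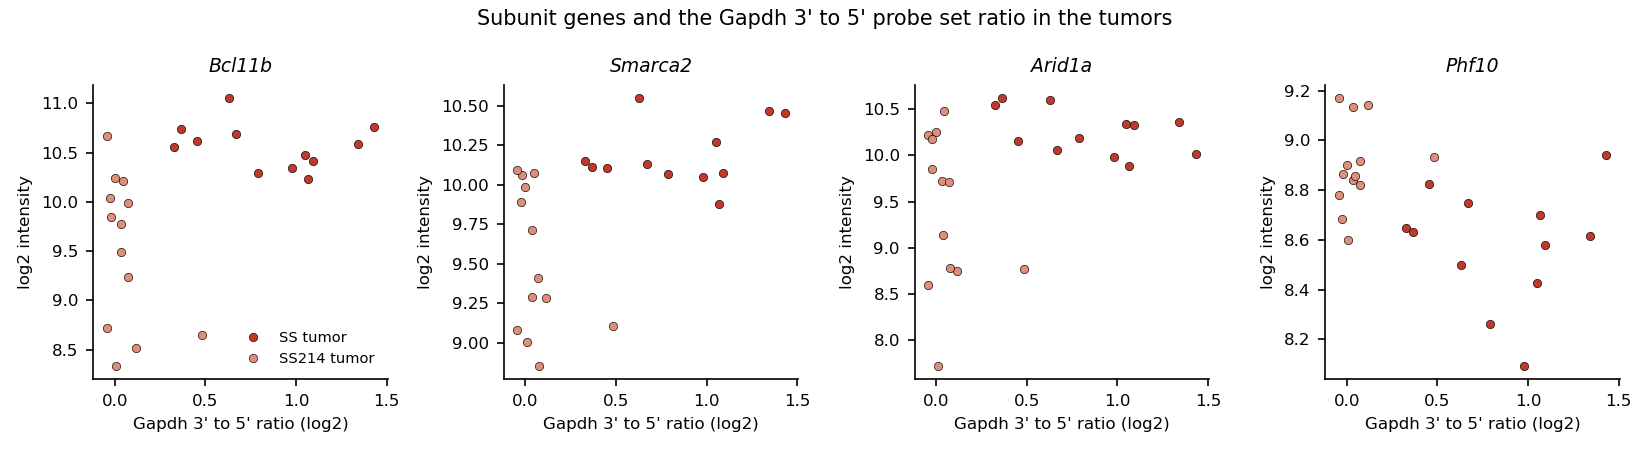
Log2 intensity (y axis) of subunit genes against the log2 *Gapdh* 3′ to 5′ ratio (x axis), with 1 dot for each of the 12 SS and 13 SS214 tumors. The ratio of 12 SS214 tumors lies below every SS tumor, and *Arid1a* spreads from 7.72 to 10.48 within SS214.

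The lines were set beside eMCs with the empty vector and beside each other to see which subunit genes stay changed in cultured tumor cells. *Actl6a*, *Ss18l1* and *Brd9* were higher in both lines, and *Smarca2* was low in SS64. In SS40 NC 16 of the 27 members were called, 14 higher and 2 lower (59.3%), where 58.6% of all genes were (32.8% higher and 25.8% lower). In SS64 NC 26 of the 27 were called, 18 higher and 8 lower (96.3%), where 60.9% were (34.9% higher and 26% lower). The groups did not overlap for 16 members in SS40 and 25 in SS64, where they did not for 57% and 58.4% of all genes. With 1 fit over all arrays the count in SS64 was 15. Both comparisons share the eMC arrays, and transformation, culture medium and the choice of tumor cannot be told apart.

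*Smarca2* read 5.57, 4.97, 5.53 and 5.67 in SS64 NC and 7.96, 8.16, 8.06 and 8.08 in SS40 NC. All SS64 arrays were lower than those of SS40, with a change of -2.63 ± 0.14 (6.19-fold lower, limma adjusted p = 5.24e-08), and than eMCs, with a change of -2.71 ± 0.12 (6.54-fold lower, limma adjusted p = 2.58e-10), while SS40 was not called (-0.08 ± 0.06). The second probe set was also lower in SS64 than in eMCs (-0.98 ± 0.12, limma adjusted p = 6.63e-06) but did not separate the lines (-0.28 ± 0.31, limma adjusted p = 0.538), so the difference between lines rests on the brightest probe set. *Bcl7a* read 8.05, 8.15, 7.89 and 7.70 in SS64 NC and 6.54, 6.12, 6.05 and 5.99 in SS40 NC. SS64 stood above SS40 (1.77 ± 0.14, 3.42-fold, limma adjusted p = 1.14e-06) and eMCs (1.98 ± 0.09, 3.94-fold, limma adjusted p = 3.28e-10), and the next probe set was 0.46 ± 0.12 above eMCs.

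*Smarcd3* read 7.11, 7.18, 7.26 and 7.27 in SS64 NC and 6.36, 6.04, 6.05 and 6.12 in SS40 NC. SS64 was higher than SS40 (1.06 ± 0.09, 2.08-fold, limma adjusted p = 2.92e-06) and eMCs (1.34 ± 0.09). Of the 4 measured heart markers 1 moved with it, *Tnnt2* (mean 10.42 in SS64 NC, 4.22 in SS40 NC and 4.74 in eMCs), and its part was not tested. *Myl7* averaged 4.35 and 4.37 in the lines and *Tnni3* 3.57 and 3.61, and *Nppa* was at the floor in both. *Brd7* read 9.11, 9.12, 9.08 and 9.11 in SS40 NC and 7.97, 7.96, 7.96 and 8.00 in SS64 NC. SS40 was above eMCs (0.91 ± 0.05, 1.88-fold, limma adjusted p = 6.68e-08) and SS64 slightly below them (-0.22 ± 0.05), and the lines differed by -1.13 ± 0.05 (2.19-fold lower, limma adjusted p = 1e-08). *Phf10* read 10.13, 10.19, 10.14 and 10.17 in SS40 NC and 9.21, 9.21, 9.20 and 9.13 in SS64 NC. It was 0.16 ± 0.03 above eMCs in SS40 and fell by 0.81 ± 0.03 in SS64 (limma adjusted p = 9.86e-11).

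*Actl6a* read 9.69, 9.89, 9.78 and 9.78 in SS40 NC and 9.56, 9.57, 9.47 and 9.55 in SS64 NC. Both lines were above all eMC arrays, by 1.18 ± 0.06 (2.27-fold, limma adjusted p = 1.1e-08) and 0.94 ± 0.04 (limma adjusted p = 3.83e-10), and in the other probe set by 0.42 ± 0.13 and 0.12 ± 0.11. The 7 measured proliferation markers were also higher, at 13.1 to 13.2 and 13.2 to 13.3 against 12.5 in eMCs, and their part was not tested. *Smarce1* read 9.65, 9.66, 9.65 and 9.56 in SS40 NC, without overlap with eMCs at 8.52, 8.53, 8.41 and 8.53 (1.13 ± 0.05, 2.19-fold, limma adjusted p = 6.16e-09). *Ss18l1* read 5.75, 6.20, 5.83 and 6.11 in SS40 NC, 6.24, 6.23, 6.38 and 6.29 in SS64 NC and 5.11, 5.20, 4.87 and 5.25 in eMCs. Both lines were higher than eMCs, by 0.86 ± 0.13 (limma adjusted p = 0.000132) and 1.18 ± 0.09 (2.26-fold, limma adjusted p = 1.07e-07).

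*Brd9* read 7.73, 7.76, 7.66 and 7.83 in SS40 NC and 7.62, 7.67, 7.70 and 7.69 in SS64 NC, above eMCs in both (0.65 ± 0.09 and 0.58 ± 0.08). *Smarcb1* read 8.71, 8.61, 8.60 and 8.67 in SS40 NC and 8.89, 8.83, 8.79 and 8.86 in SS64 NC, and was lower than in eMCs, with changes of -0.33 ± 0.05 (limma adjusted p = 0.000169) and -0.14 ± 0.04 (limma adjusted p = 0.00954). *Arid1a* read 8.56, 8.21, 8.56 and 8.55 in SS40 NC and 8.97, 9.00, 8.84 and 8.93 in SS64 NC, and was higher than in eMCs in SS64 (0.63 ± 0.05) and not called in SS40 (0.16 ± 0.08). Neither line had *Bcl11b* at the level of the tumors. It read 4.98, 5.00, 5.18 and 5.21 in SS40 NC (0.47 ± 0.09) and 4.69, 4.27, 4.16 and 4.39 in SS64 NC, the only member not called there (-0.25 ± 0.11, limma adjusted p = 0.0815). *Bcl11a* was lower than in eMCs in both (-0.56 ± 0.11 and -0.52 ± 0.12). Its means of 4.23 in SS40 NC and 4.27 in SS64 NC lay under the mean array median of 4.60, where signal is dim. Between the lines 15 of the 27 members were called, 7 higher and 8 lower in SS64 (55.6%), where 48.5% of all genes were (22.1% higher and 26.4% lower), and the lines did not overlap for 16 members and 48.4% of all genes.

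The pairs with the largest shifts from eMCs, which 4 arrays a group cannot carry past the threshold, were *Bcl11a* minus *Bcl11b* (-1.03) and *Actl6a* minus *Actl6b* (0.97) in SS40 and *Bcl7a* minus *Bcl7b* (1.34) and *Smarcd1* minus *Smarcd2* (1.33) in SS64. Between the lines *Bcl7a* minus *Bcl7b* differed by 1.79. The groups did not overlap in any of these. *Bcl11a* was dim in SS40, as given above.

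**Figure D5:**
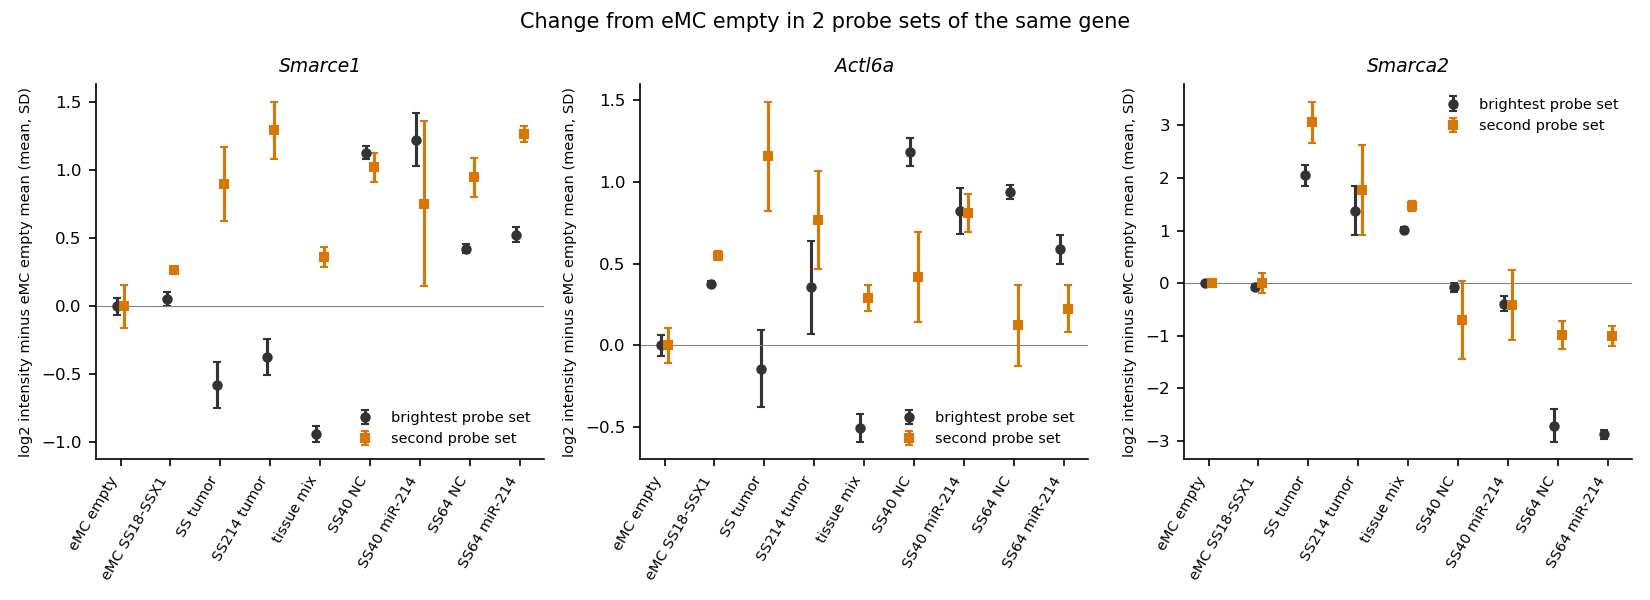
Change from the mean of eMCs with the empty vector (log2, y axis) in the brightest and the second probe set of *Smarce1*, *Actl6a* and *Smarca2*, by group (x axis), as means with SDs. For *Smarca2* the change in SS64 NC is -2.71 in the brightest and -0.98 in the second, and for *Smarce1* the SS tumors lie on opposite sides of 0.

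Introduction of *miR-214* into the lines asked for its effect in tumor cells themselves, and the share of members called was near that of all genes in both lines. In SS40 no member was called, where 1.03% of all genes were. Without adjustment 3 members had a limma p under 0.05, where 11.4% of all genes did. The unadjusted t-test of the study's methods also gave 3 members. In SS64 3 were called, 2 higher and 1 lower (11.1%), where 12.9% of all genes were (4.9% higher and 8.02% lower). Arrays with *miR-214* and NC did not overlap for 3 members in SS40 and 6 in SS64, where they did not for 10.8% and 19.5% of all genes. With the replicate number as a block 5 were called in SS64, 3 higher and 2 lower. With 1 fit over all arrays 0 were.

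*Actl6a* read 9.24, 9.29, 9.14 and 9.09 in SS64 with *miR-214*. All were below the NC arrays, with a change of -0.35 ± 0.05 (1.27-fold lower, limma adjusted p = 0.00101), and the other probe set was not called (0.10 ± 0.12). In SS40 it read 9.44, 9.49, 9.55 and 9.23, also below every NC array, and did not pass (-0.36 ± 0.09, limma adjusted p = 0.157). The other probe set of *Actl6a* moved the other way in SS40, at 6.68 to 6.93 with *miR-214* and 6.06 to 6.65 with NC. *Phf10* read 9.32, 9.40, 9.48 and 9.43 in SS64 with *miR-214*, above every NC array (0.22 ± 0.05, limma adjusted p = 0.0101). *Brd9* read 7.83, 7.80, 7.87 and 7.95 there, also without overlap and close to the threshold (0.19 ± 0.06, limma adjusted p = 0.0498). *Smarcb1* read 8.90, 8.93, 8.68 and 8.80 and overlapped with NC (-0.01 ± 0.06, limma adjusted p = 0.957). *Smarca2* read 5.33, 5.21, 5.34 and 5.19 in SS64 and 7.70, 7.58, 7.81 and 7.93 in SS40 with *miR-214*, not called in either (-0.17 ± 0.14 and -0.31 ± 0.10).

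Replicate 4 of SS40 with *miR-214* held the extreme value of several members. *Arid1a* read 8.67, 8.67, 8.64 and 7.34 there, *Smarcc2* 6.08, 5.96, 6.10 and 4.43 and *Brd9* 7.95, 7.95, 7.87 and 7.44, with the last array the low one each time. Without it the change went from -0.52 ± 0.35 to -0.11 ± 0.15 for *Smarcc2*, from -0.14 ± 0.28 to 0.19 ± 0.10 for *Arid1a* and from -0.20 ± 0.37 to 0.21 ± 0.19 for *Pbrm1*. No member was called without it either, and *Actl6a* came closest in its brightest probe set (-0.29 ± 0.06, limma adjusted p = 0.0558). The effect of *miR-214* did not pass a test of a difference between the lines for any member, where 0.872% of all genes did. In that test 2 members had an unadjusted limma p under 0.05, where 10.2% of all genes did. The smallest limma adjusted p among members was that of *Bcl7c* (0.431).

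Genes of other chromatin remodelers, such as the CHD, ISWI and NuRD families, were read beside the members. In eMCs given the fusion 14 of 26 were called, 7 higher and 7 lower (53.8%), where 48.9% of all genes were called. Among them were the NuRD ATPase *Chd4* (0.62 ± 0.11) and its partner *Mta1* (-0.40 ± 0.06). In SS tumors 22 of 26 were called against the mix (84.6%, 21 higher, median 0.66), where 63.3% of all genes were. Against eMCs 23 of 26 were called (88.5%, 18 higher, median 0.70), where 68.3% of all genes were. The ISWI ATPase *Smarca1* was 2.47 ± 0.21 above the mix and the NuRD ATPase *Chd3* 3.19 ± 0.24 above eMCs. In SS214 against SS 22 of 26 were called (84.6%), 19 of them lower (median -0.54), where 39.9% of all genes were called and 17.3% were lower. The largest falls were those of *Chd7* (-1.23 ± 0.24) and *Chd3* (-1.10 ± 0.22). The *Gapdh* ratio nearly separated these tumors, and the other remodelers were not fitted with it as a covariate. *Smarca1* was far below eMCs in both lines (-3.58 ± 0.12 in SS40 and -5.11 ± 0.09 in SS64), and the helicase gene *Hells* was higher in SS40 (2.05 ± 0.05). After *miR-214* 0 of 26 were called in SS40 and 2 of 26 in SS64 (7.69%), where 1.03% and 12.9% of all genes were.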

How the data were processed

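Total RNA was labeled and hybridized to Affymetrix mouse arrays. The authors deposited 1 table of 53 columns with a linear intensity per probe set. Per the labels the tool was MAS5, with no version given, and how the arrays were scaled is not given in the sources used here. The table holds 45141 probe sets. Of these, 28898 have 1 symbol in the platform annotation, 551 have several and 15588 have none. Intensities were floored at the median over arrays of each array's 20th percentile (11.7), log2 transformed, and tested in limma 3.58.1 (R 4.3.3) with lmFit and eBayes (with a trend) on the groups of each comparison, after leaving out control probe sets and those not above the floor on at least 4 arrays of the comparison. Array medians were 22.6 to 26.9. Benjamini-Hochberg adjustment of p-values covered every probe set tested. Each gene is represented by its brightest probe set, and 17 members have several.

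Samples were grouped by their labels. The members, gene lists and pairs were chosen with earlier results of these data known. Values by array are given for *Smarcb1*, *Smarca2*, *Arid1a* and *Brd9*, and for the called members of a comparison that changed most, up to 4. Values of other members were added where a result turned on them. Pairs were tested by exact permutation tests, or 100000 resamples for SS214 against SS (scipy 1.17.1), two-sided. The scripts were tested on simulated data with known changes. Of 67 changes of 1.5-fold, 29 were recovered for *miR-214* in SS40, the fewest of any comparison simulated, and 67 for the fusion in eMCs. At 2-fold 61 of 67 were recovered for *miR-214* in SS40. The share of calls that were false was 4.19% (SS against the mix) to 8.81% (between the lines). Alternatives were the floor, the filter, quantile normalization, the mean over probe sets, 1 fit of all arrays and the t-test of the study's methods. Others were a replicate block, leaving out each array of the groups of 4 arrays, and *Gapdh* ratio and lung markers as covariates. The other remodelers and marker lists were read as summed or tested intensity in the same way.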

Additional observations from a re-analysis of the deposited data

Results flagged for a closer look

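In groups of 4 to 10 arrays, the gap between an extreme array and its nearest neighbor was compared with the range of the group, and a gap above the critical value of Dixon's test was singled out. Chance does this in about 1 in 20 groups, and 15 of the 189 gene and group combinations tested were singled out. Of these, 5 were the same array, replicate 4 of SS40 with *miR-214*. *Smarcc2* in SS40 with *miR-214* had its lowest array at 4.43 (replicate 4) and the next at 5.96, a gap of 0.919 of the range of the group. In SS40 with *miR-214*, replicate 4 was the lowest for *Arid1a*, at 7.34 with its neighbor at 8.64 and a gap of 0.979 of the range. Replicate 4 of SS40 with *miR-214* was lowest for *Pbrm1* (8.13, next array 9.72, gap 0.936 of the range). *Brd7* in SS40 with *miR-214* had its highest array at 9.64 (replicate 4) and the next at 9.09, a gap of 0.861 of the range of the group. In SS40 with *miR-214*, replicate 4 was the lowest for *Brd9*, at 7.44 with its neighbor at 7.87 and a gap of 0.849 of the range.

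The others were spread over several arrays, and many of the gaps were small in log2 units. *Smarcc1* in eMCs with the fusion had its lowest array at 8.43 (replicate 4) and the next at 8.56, a gap of 0.864 of the range of the group. In the mix, replicate 1 was the lowest for *Smarcc2*, at 7.38 with its neighbor at 7.47 and a gap of 0.831 of the range. Replicate 4 of eMCs with the empty vector was highest for *Smarcd2* (9.87, next array 9.78, gap 0.905 of the range). *Smarce1* in eMCs with the empty vector had its lowest array at 8.41 (replicate 3) and the next at 8.52, a gap of 0.935 of the range of the group. In SS40 NC, replicate 4 was the lowest for *Smarce1*, at 9.56 with its neighbor at 9.65 and a gap of 0.849 of the range. Replicate 2 of SS40 NC was lowest for *Actl6b* (4.05, next array 4.29, gap 0.865 of the range). *Bcl7a* in eMCs with the fusion had its lowest array at 6.46 (replicate 2) and the next at 6.65, a gap of 0.94 of the range of the group. In eMCs with the empty vector, replicate 4 was the lowest for *Arid1a*, at 8.21 with its neighbor at 8.33 and a gap of 0.831 of the range. Replicate 2 of SS40 NC was lowest for *Arid1a* (8.21, next array 8.55, gap 0.975 of the range). *Phf10* in SS64 NC had its lowest array at 9.13 (replicate 4) and the next at 9.20, a gap of 0.842 of the range of the group.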

How the results depend on the processing

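The number of members called stayed within 1.5 times its value under quantile normalization, with no floor or a higher one, without the filter on low values, with the mean over the probe sets of a gene, and with the t-test of the methods after Benjamini-Hochberg adjustment. With 1 fit of all arrays it was 3 in eMCs given the fusion, 0 for *miR-214* in SS64 and 15 for SS64 NC against eMCs. With the *Gapdh* ratio as a covariate it was 14 for SS against the mix and 1 for SS214 against SS. The share of all genes called was computed for the main fits only. The unadjusted t-test of the methods called 3 members for *miR-214* in SS40 and 8 in SS64. With the mean over probe sets 21 pair shifts passed in place of 13. The cause was not tested. Arrays were left out 1 at a time only from the groups of 4 arrays. No single tumor was left out, so these counts do not cover the removal of a tumor, and SS214 against SS was not recomputed in this way. The members called were 7 to 9 for the fusion in eMCs, 19 to 21 for SS against the mix and 20 to 21 for SS against eMCs. They were 0 to 0 and 2 to 3 for *miR-214* in SS40 and SS64, and 0 to 0 for their difference. For SS40 and SS64 NC against eMCs they were 15 to 21 and 24 to 25, and between the lines 14 to 18.

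The direction turned in the following cases among the changes recomputed. *Smarcb1* in eMCs given the fusion was -0.0378 after quantile normalization, *Smarcd2* in SS against the mix -0.0129 with the *Gapdh* covariate, and *Smarce1* in SS against eMCs 0.0676 with the mean over probe sets. *Smarcb1* after *miR-214* in SS64 was 0.0126 after quantile normalization, 0.0038 without NC replicate 1 and 0.0385 without *miR-214* replicate 3, in a range from -0.0466 with 1 array left out.

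The main tests did not pair arrays. In SS64 2 of the 4 arrays with *miR-214* correlated best with the NC array of their own number. With the replicate number as a block, 5 members were called for *miR-214* in SS64. Same-numbered arrays deviated together there (correlations 0.221 to 0.346) and were taken as pairs in that fit alone. Elsewhere the numbers did not pair the arrays by this measure, and the block gave 9 for the fusion in eMCs, 0 for *miR-214* in SS40, 0 for the difference between lines, 17 and 25 for SS40 and SS64 NC against eMCs and 14 between the lines. Leaving out the 6 SS tumors with the highest *Gapdh* ratio, a choice made after seeing the data, gave 21, 19 and 13 members for SS against the mix, SS against eMCs and SS214 against SS. Signal near the floor limits *Actl6b*, *Dpf1* and *Dpf3*, and groups of 4 arrays limit precision.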
